A study of Homo sapiens with 6 samples.

Results

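The genes of purine and pyrimidine nucleotide synthesis were examined in MOLM13, an acute myeloid leukemia cell line, after treatment with a METTL3 degrader. They were 32 genes, chosen by symbol from the 56305 genes counted, namely 18 of the de novo pathways, 4 of salvage, 6 of deoxynucleotide synthesis and 4 nucleotide kinases. Cells received DMSO, the solvent control, or 1 μM ZW27941 for 24 h, with 3 libraries in each group. By the labels, all cells carried an internal tandem duplication of FLT3 and a t(9;11) translocation. ZW27941 is a proteolysis-targeting chimera (PROTAC) that recruits the ubiquitin ligase VHL to METTL3, the catalytic subunit of the writer of N6-methyladenosine in mRNA. The comparison asked how the transcripts of each step of nucleotide synthesis differed between degrader and solvent, and all results refer to this 1 cell line, dose and time. No source stated whether the 3 libraries of a group came from separate cultures, so the p-values below measure only the spread between these libraries.

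Cells build purine nucleotides from small precursors on the activated ribose PRPP, through inosine monophosphate (IMP), and pyrimidines through orotate and uridine monophosphate. Salvage enzymes instead recycle free bases and nucleosides. Ribonucleotide reductase then converts ribonucleotides to deoxynucleotides, whose supply rises in S phase, and rapidly dividing leukemia cells depend on these routes, which are the targets of several antimetabolite drugs.

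Each library held between 143454176 and 178744976 counts on genes, so that each member was represented by at least 318 counts per library and, apart from NME2, by at least 2100. The labels state 50M raw reads per sample, fewer than the counts on genes of any library, and the sources used here do not resolve this difference, so it is uncertain how many independent reads a count stands for. Of all genes, 20399 passed the expression filter and were tested, and all 32 members were among them. Levels are given as CPM, counts scaled to a common library total after TMM normalization. The common coefficient of biological variation between libraries of a group was 3.11%. The transcript of METTL3 lay between 119 and 128 CPM in all libraries, but because the degrader acts on the protein this does not check the labels. All 10 AML and monocytic markers were at 36.8 CPM or above on average, with a summed level of 2618 to 2688 CPM in DMSO and 2865 to 2944 CPM on ZW27941. Markers of T cells (4 of 4), erythroid cells (4 of 4) and epithelial cells (3 of 3) stayed under 1 CPM in every library, as did 2 of 3 fibroblast markers and 2 of 4 B cell markers. The B cell markers summed to 27.1 to 28.6 CPM in DMSO and 29.2 to 30.2 CPM on ZW27941, nearly all of it from PAX5. PAX5 was at 25.8 CPM in DMSO and 28.0 CPM on ZW27941 on average and was called higher (log2 fold change 0.12, adjusted p = 0.00562, edgeR). CD79A lay between 1.16 and 1.58 CPM over all libraries.

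On ZW27941, 12 of the 32 members (37.5%) fell and 4 (12.5%) rose by the quasi-likelihood test of edgeR, at 0.05 after Benjamini-Hochberg adjustment over all genes tested. By the same rule, 13.8% of all genes tested were lower and 16.3% higher. All adjusted p below come from this test and adjustment. The members are well expressed, and such genes pass a test more often. Among genes with a mean of at least 3 on the log2 CPM scale, which 31 members reached, 20.0% were lower and 25.4% higher, against 12 and 4 of these 31 members. The 3 ZW27941 libraries lay below all DMSO libraries for 10 members (31.25%) and above them for 4 (12.5%), against 19.9% and 21.7% of all genes tested. The median log2 fold change of the members was −0.038, against −0.0019 for all genes tested, and it was −0.061 with upper quartile normalization, under which the median of all genes tested moved to −0.025. That normalization gave 13 members lower and 3 higher, and it raised the share of lower genes among all called genes from 45.8% to 57.9%. In bulk RNA, fewer cells in a given state and less RNA per cell cannot be told apart.

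The changes were small. Of the members past the threshold, only PRPS2 and TK1, both higher, moved by over 0.25 on the log2 scale, and the member with the lowest value, ADSL, was at −0.22. The plot of fold changes by step shows 4 lower genes among the 7 of the route to IMP. From IMP to the purine nucleotides AMP and GMP, 2 of 4 genes were lower. These counts stand beside 13.8% lower genes over all genes tested and 20.0% among well expressed ones. The remaining lower genes, PRPS1, CAD, APRT, SAMHD1, CMPK1 and GUK1, were spread over all the other steps. The higher genes were spread over PRPP supply, pyrimidine synthesis, salvage and ribonucleotide reductase.

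**Figure D1:**
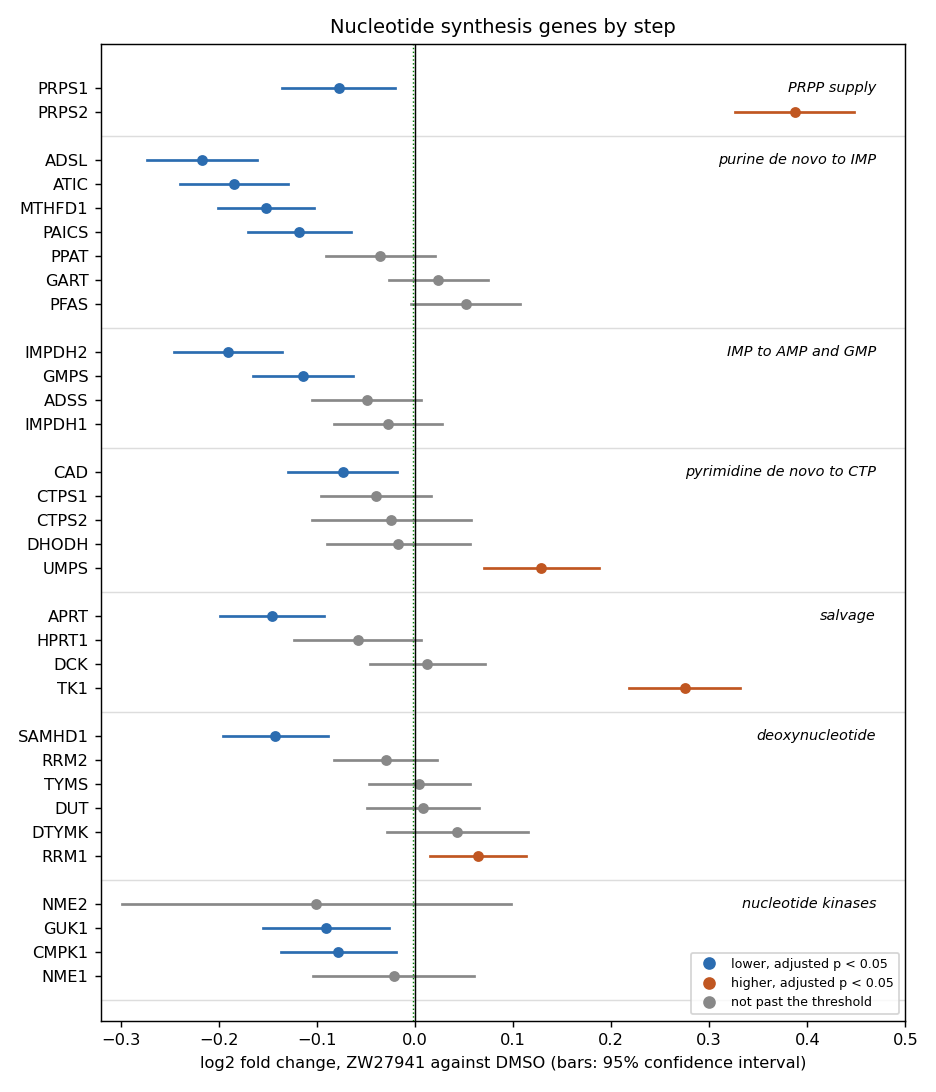
The log2 fold change of ZW27941 against DMSO (horizontal axis) is drawn for each of the 32 genes by step, with bars for the 95% confidence interval and a dotted line at the median of all genes tested. Of the route to IMP, 4 of 7 genes were lower (blue) and 0 were higher (orange), and PRPS2 and TK1 lay farthest to the right, at 0.39 and 0.28. Among all genes tested, 13.8% were lower and 16.3% higher.

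By branch, 8 of the 18 de novo genes were lower and 2 were higher, with a median log2 fold change of −0.044. Of the 4 salvage genes, 1 was lower and 1 was higher (median −0.023). Among the 6 deoxynucleotide genes the numbers were also 1 and 1, with a median of 0.0063. Of the 4 nucleotide kinases, 2 were lower and 0 were higher (median −0.084), none of them without overlap between groups. Over all genes tested, 13.8% were lower and 16.3% higher, and among well expressed genes 20.0% and 25.4%. Whether the branches differed from each other was not tested, because their members are few and were chosen with earlier results known.

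PRPP supply held 2 paralogs that changed in opposite directions. PRPS1 and PRPS2 encode PRPP synthetases, which make the activated ribose used by purine, pyrimidine and salvage enzymes alike. PRPS2 (chrX:12791355-12824222, plus strand, GENCODE v29) was at 35.4, 35.6 and 35.7 CPM in the DMSO libraries and at 45.2, 46.6 and 47.8 CPM in the ZW27941 libraries. It rose by 30.8%, the member with the lowest p (log2 fold change 0.39, SE 0.029, adjusted p = 2.88e-09, edgeR). All ZW27941 libraries lay far above the narrow DMSO range. PRPS1 (chrX:107628424-107651026, plus strand) was at 55.9, 57.9 and 57.4 CPM in DMSO and at 54.5, 52.6 and 55.1 CPM on ZW27941, and it fell by 5.26% (log2 fold change −0.078, SE 0.028, adjusted p = 0.0387, edgeR). The groups did not overlap, but the highest ZW27941 library came close to the lowest DMSO library. Without DMSO replicate 2, DMSO replicate 3, ZW27941 replicate 1 or ZW27941 replicate 2, PRPS1 was past the threshold no longer (adjusted p = 0.136, 0.118, 0.0647 and 0.182 in that order, edgeR). The call was also lost with a replicate block (0.0675), scaling by library size only (0.0738) and no filter on low counts (0.0756).

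The ratio of PRPS2 to PRPS1 counts within a library does not depend on scaling. Like the other ratios below, it was chosen after seeing the data, so its p-value only describes the separation of the groups. It was 0.634, 0.616 and 0.622 in DMSO and 0.828, 0.887 and 0.869 on ZW27941, so the mean ratio was 1.38-fold higher (exact permutation test, two-sided, p = 0.1, the smallest that 3 against 3 libraries allow; 0.125 after Benjamini-Hochberg adjustment over 10 such ratios). Per length, PRPS1 stayed the more abundant paralog, at 21.8 against 12.9 CPM per kilobase of exon in DMSO and 20.6 against 16.9 on ZW27941.

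In the route from PRPP to IMP, 4 of 7 genes fell, 0 rose and 3 did not pass the test, with a median log2 fold change of −0.12. Over all genes tested the shares were 13.8% lower and 16.3% higher, and among well expressed genes 20.0% and 25.4%. ADSL encodes adenylosuccinate lyase, which acts both in this route and in the last step to AMP. ADSL (chr22:40346500-40390463, plus strand) was at 118, 122 and 118 CPM in DMSO and at 99.9, 102 and 106 CPM on ZW27941. It fell by 14.0% (log2 fold change −0.22, SE 0.027, adjusted p = 2.63e-06, edgeR), with a wide gap between the groups. ADSL shares 18.9% of its exon bases in GENCODE v29 with another gene on the same strand, where reads of the 2 genes cannot be told apart.

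ATIC, the bifunctional enzyme of the last steps to IMP, was at 97.1, 94.7 and 92.5 CPM in DMSO and at 83.6, 81.7 and 84.8 CPM on ZW27941. It fell by 12.0% (log2 fold change −0.18, SE 0.027, adjusted p = 1.62e-05, edgeR). MTHFD1, which makes the formyl folate that purine synthesis consumes, was at 213, 212 and 212 CPM in DMSO and at 194, 188 and 191 CPM on ZW27941. For both genes the groups were well apart, and MTHFD1 fell by 9.99% (log2 fold change −0.15, SE 0.023, adjusted p = 3.89e-05, edgeR).

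PAICS, a bifunctional enzyme of the middle of the route, and PPAT, the amidotransferase of its first committed step, are divergent neighbours on chromosome 4. PAICS was at 371, 358 and 361 CPM in DMSO and at 327, 339 and 338 CPM on ZW27941 and fell by 7.85% (log2 fold change −0.12, SE 0.025, adjusted p = 0.0011, edgeR). PPAT was at 65.2, 62.9 and 63.7 CPM in DMSO and at 63.0, 63.0 and 61.2 CPM on ZW27941, with overlapping groups (log2 fold change −0.035, 95% confidence interval −0.091 to 0.020, adjusted p = 0.353, edgeR). The PAICS to PPAT ratio was 5.68 ± 0.011 in DMSO and 5.37 ± 0.17 on ZW27941 (SD, n = 3), without overlap (exact permutation p = 0.1, the smallest possible). The remaining genes, GART (log2 fold change 0.024) and PFAS (0.052), did not pass the test, and their groups overlapped.

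The short stretch between the starts of PPAT and PAICS is shown because a single DNA segment lies upstream of a member that fell and of one that did not pass the test. It is the part outside the exons of either gene in GENCODE v29, 125 bases at chr4:56435616-56435740 (GRCh38.p14, RefSeq sequence, plus strand), and none of the motifs searched for below occurs in it.
PPAT-PAICS: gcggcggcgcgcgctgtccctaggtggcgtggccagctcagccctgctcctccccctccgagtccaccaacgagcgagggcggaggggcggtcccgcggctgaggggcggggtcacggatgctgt

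From IMP, separate enzymes lead to AMP and to GMP, and 2 of these 4 genes fell. The share of lower genes was 13.8% over all genes tested and 20.0% among well expressed ones. IMPDH2, which encodes the main IMP dehydrogenase of proliferating cells and the target of mycophenolic acid, was at 473, 472 and 478 CPM in DMSO and at 401, 416 and 430 CPM on ZW27941. It fell by 12.4% (log2 fold change −0.19, SE 0.027, adjusted p = 1.16e-05, edgeR). The 3 ZW27941 libraries were spread more widely than those of DMSO, but all were lower. Its paralog IMPDH1 was at 104, 103 and 101 CPM in DMSO and at 100, 98.0 and 104 CPM on ZW27941, with overlap (log2 fold change −0.028, 95% confidence interval −0.083 to 0.028, adjusted p = 0.480, edgeR). The IMPDH2 to IMPDH1 ratio was 4.62 ± 0.089 in DMSO and 4.13 ± 0.12 on ZW27941 (SD, n = 3; exact permutation p = 0.1, the smallest possible).

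GMPS, the GMP synthetase that follows IMP dehydrogenase, was at 138, 138 and 135 CPM in DMSO and at 124, 129 and 127 CPM on ZW27941. It fell by 7.60% (log2 fold change −0.11, SE 0.024, adjusted p = 0.0011, edgeR), again with no overlap. On the AMP side, the adenylosuccinate synthetase ADSS had a log2 fold change of −0.049 and did not pass the test (95% confidence interval −0.10 to 0.0063, adjusted p = 0.179, edgeR). IMPDH2 against ADSS, the 2 genes that draw on IMP in opposite directions, went from a ratio of 5.29 ± 0.16 to 4.79 ± 0.15 (SD, n = 3; exact permutation p = 0.1, the smallest possible).

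**Figure D2:**
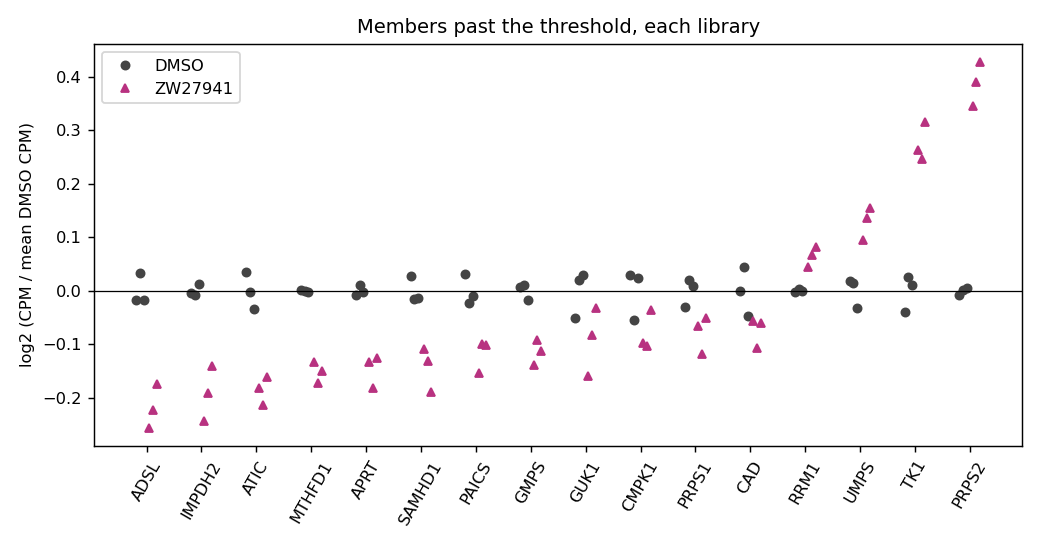
Each point is 1 library, as log2 of its CPM over the mean DMSO CPM, for the 16 genes past the threshold, ordered by the mean of the ZW27941 libraries (triangles; DMSO libraries are circles). The groups overlap for GUK1 and CMPK1 and are separate for the other 14 genes.

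Of the 5 genes of pyrimidine synthesis, 1 was lower and 1 was higher, or 20% each. These shares are near those of well expressed genes, 20.0% and 25.4%. The log2 fold change was negative for 4 of the 5 genes and positive for 1. UMPS, the bifunctional enzyme that turns orotate into uridine monophosphate, was at 47.1, 47.0 and 45.5 CPM in DMSO and at 49.7, 51.1 and 51.8 CPM on ZW27941. It rose by 9.34% (log2 fold change 0.13, SE 0.028, adjusted p = 0.00139, edgeR), and every ZW27941 library was above every DMSO library. CAD, the trifunctional protein of the first steps, was at 171, 176 and 165 CPM in DMSO and at 164, 158 and 164 CPM on ZW27941. CAD fell by 4.99% (log2 fold change −0.074, SE 0.027, adjusted p = 0.0398, edgeR), with a narrow gap between the groups. This call was lost without DMSO replicate 1, DMSO replicate 2 or ZW27941 replicate 2 (adjusted p = 0.0943, 0.229 and 0.181 in that order, edgeR), and with a replicate block (0.0546), scaling by library size only (0.0809) or no filter on low counts (0.0568).

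The UMPS to CAD ratio was 0.273 ± 0.0052 in DMSO and 0.314 ± 0.010 on ZW27941, 1.15-fold higher (SD, n = 3; exact permutation p = 0.1, the smallest possible). DHODH, the mitochondrial dehydrogenase between them, lay at 25.4 to 27.9 CPM in DMSO and 25.7 to 26.5 CPM on ZW27941. The CTP synthetases CTPS1 and CTPS2 had log2 fold changes of −0.040 and −0.024 and did not pass the test, with 95% confidence intervals of −0.096 to 0.017 and −0.11 to 0.057. Their ratio was 3.84 ± 0.16 in DMSO and 3.80 ± 0.10 on ZW27941 (SD, n = 3), with overlap (exact permutation p = 0.7).

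Among the salvage genes, the thymidine kinase rose and the adenine salvage enzyme fell. TK1 (chr17:78174075-78187233, minus strand), the cytosolic thymidine kinase whose level rises in S phase, was at 74.5, 78.0 and 77.1 CPM in DMSO and at 91.8, 90.7 and 95.2 CPM on ZW27941. It rose by 21.0% (log2 fold change 0.28, SE 0.027, adjusted p = 1.48e-07, edgeR), with the groups far apart. DCK, the deoxycytidine kinase that activates cytarabine, lay at 41.2 to 42.6 CPM in DMSO and 42.0 to 43.0 CPM on ZW27941, with overlap (log2 fold change 0.013, 95% confidence interval −0.046 to 0.071, adjusted p = 0.780, edgeR). DCK shares 6.17% of its exon bases with MOB1B on the same strand. The TK1 to DCK ratio was 1.82 ± 0.066 in DMSO and 2.18 ± 0.070 on ZW27941, 1.20-fold higher (SD, n = 3; exact permutation p = 0.1, the smallest possible).

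APRT, which salvages adenine, was at 95.2, 96.4 and 95.5 CPM in DMSO and at 87.3, 84.4 and 87.8 CPM on ZW27941. It fell by 9.63% (log2 fold change −0.15, SE 0.025, adjusted p = 1.43e-04, edgeR), with no overlap. HPRT1, which salvages hypoxanthine and guanine, was at 69.9, 65.7 and 66.7 CPM in DMSO and at 64.5, 62.3 and 67.5 CPM on ZW27941. These groups overlapped and HPRT1 did not pass the test (log2 fold change −0.058, adjusted p = 0.173, edgeR), but it was lower without ZW27941 replicate 3 (log2 fold change −0.091, adjusted p = 0.0190, edgeR). The HPRT1 to APRT ratio was 0.705 ± 0.027 in DMSO and 0.748 ± 0.017 on ZW27941 (SD, n = 3), without overlap by a narrow margin. Of the 10 ratios examined, 8 gave the smallest possible exact permutation p of 0.1 (0.125 after Benjamini-Hochberg adjustment) and the other 2 gave 0.7. That smallest value means only that the groups did not overlap. Because the pairs were chosen after seeing the data, and several set a called gene against one not called or called the other way, separation was partly built in. These p-values are no independent support for the calls.

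**Figure D3:**
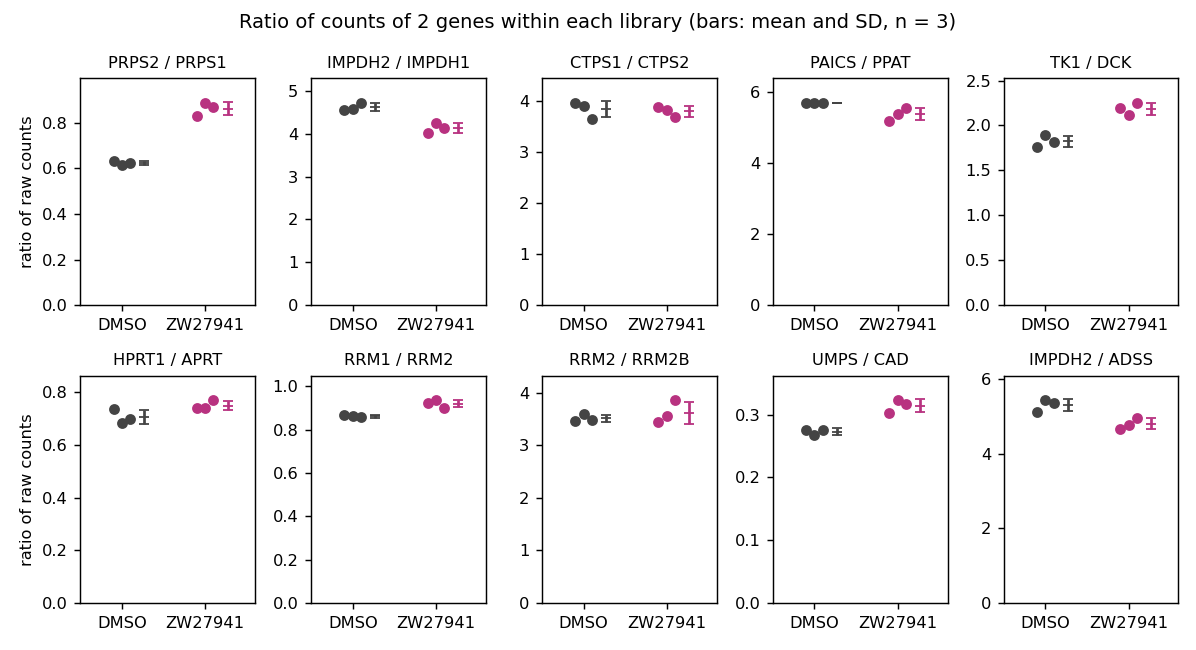
The ratio of raw counts of 2 genes within each library is shown for 10 pairs in DMSO and ZW27941 libraries, with each axis starting at 0, points for libraries and bars for the mean and SD of 3 libraries. The PRPS2 to PRPS1 ratio shows the widest separation, 0.624 against 0.861 on average, and the CTPS1 to CTPS2 and RRM2 to RRM2B ratios overlap.

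The deoxynucleotide genes mostly did not pass the test. SAMHD1, the triphosphohydrolase that breaks down deoxynucleotides, was at 244, 237 and 237 CPM in DMSO and at 222, 218 and 210 CPM on ZW27941. It fell by 9.39% (log2 fold change −0.14, SE 0.026, adjusted p = 2.28e-04, edgeR), with no overlap. SAMHD1 shares 10.3% of its exon bases with TLDC2 on the other strand.

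RRM1, the large subunit of ribonucleotide reductase, was at 168, 169 and 169 CPM in DMSO and at 174, 177 and 178 CPM on ZW27941. It rose by 4.54% (log2 fold change 0.064, SE 0.024, adjusted p = 0.0434, edgeR), and the groups did not overlap. The call was lost without DMSO replicate 1, 2 or 3 and without ZW27941 replicate 2 or 3 (adjusted p = 0.0946, 0.0871, 0.112, 0.130 and 0.0924 in that order, edgeR), as well as with RLE (0.0597) and upper quartile (0.214) normalization, a replicate block (0.0748) and no filter on low counts (0.05005, just above the threshold). RRM2, the small subunit that limits the enzyme outside S phase, was at 194, 196 and 197 CPM in DMSO and at 188, 189 and 198 CPM on ZW27941, with overlap (log2 fold change −0.030, 95% confidence interval −0.082 to 0.022, adjusted p = 0.410, edgeR). RRM2 shares 20.2% of its exon bases with another gene on the same strand. The RRM1 to RRM2 ratio was 0.862 ± 0.0064 in DMSO and 0.920 ± 0.017 on ZW27941 (SD, n = 3; exact permutation p = 0.1, the smallest possible).

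RRM2B, the p53-induced paralog of RRM2, is no member but a partner, and had a log2 fold change of −0.071 that did not pass the test (adjusted p = 0.0632, edgeR). Its groups did not overlap. It was called lower with RLE (adjusted p = 0.0489, edgeR) and upper quartile normalization (0.0140) and without ZW27941 replicate 1 (0.0407). The RRM2 to RRM2B ratio overlapped between groups (exact permutation p = 0.7). TYMS, the thymidylate synthase and target of fluorouracil, was at 213, 205 and 208 CPM in DMSO and at 209, 206 and 214 CPM on ZW27941, with a log2 fold change of 0.0044 (95% confidence interval −0.047 to 0.056, adjusted p = 0.916, edgeR). Of its exon bases, 46.6% are shared with genes on the other strand, ENOSF1 and TYMSOS, and the strand setting of the counting is not given in the sources used here. ENOSF1 was at 112 CPM in DMSO and 98.8 CPM on ZW27941 and fell (log2 fold change −0.18, adjusted p = 1.53e-05, edgeR), and TYMSOS rose from 1.98 to 3.05 CPM (log2 fold change 0.62, adjusted p = 4.07e-06, edgeR). Both neighbours were looked up after their overlap was found. DUT, the dUTPase, and DTYMK, the thymidylate kinase, had log2 fold changes of 0.0082 and 0.043 and did not pass the test.

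The nucleotide kinases form the di- and triphosphates. GUK1, the guanylate kinase, was at 86.4, 90.7 and 91.3 CPM in DMSO and at 80.1, 84.5 and 87.5 CPM on ZW27941 (log2 fold change −0.090, SE 0.031, adjusted p = 0.0303, edgeR). CMPK1, which phosphorylates CMP and UMP, was at 97.6, 92.1 and 97.3 CPM in DMSO and at 89.5, 89.1 and 93.3 CPM on ZW27941 (log2 fold change −0.078, SE 0.028, adjusted p = 0.0405, edgeR). Both passed the threshold although their highest ZW27941 library lay above their lowest DMSO library. The call of GUK1 was lost without DMSO replicate 2 or 3 or ZW27941 replicate 1 or 2 (adjusted p = 0.116, 0.138, 0.214 and 0.0615 in that order, edgeR). That of CMPK1 was lost without DMSO replicate 1 or 3 or ZW27941 replicate 1 or 2 (adjusted p = 0.168, 0.163, 0.133 and 0.154 in that order, edgeR), and with scaling by library size only (0.0730) or no filter on low counts (0.0513).

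NME1 and NME2, paralogous nucleoside diphosphate kinases that lie side by side, had log2 fold changes of −0.022 (95% confidence interval −0.10 to 0.060) and −0.10 (−0.30 to 0.097) and did not pass the test. NME1 lay at 16.2 to 17.9 CPM over all libraries and NME2 at 1.84 to 2.42 CPM. Their values are uncertain. Both share exon bases with the readthrough gene NME1-NME2 (18.6% of NME1 and 22.9% of NME2), which is listed at 0 counts in every library, and reads that match both paralogs could have been set aside. Without these genes, the members still numbered 12 lower and 4 higher, of 30.

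The members differed widely in level per length. IMPDH2 was the highest in DMSO, at 171 ± 1.27 CPM per kilobase of exon (SD, n = 3), followed by TYMS at 84.5 ± 1.68, APRT at 53.1 ± 0.33 and PAICS at 48.3 ± 0.94, each with a range over libraries separate from the next. HPRT1 (41.5), TK1 (41.1) and RRM1 (40.4) came next, and TK1 overlapped both of its neighbours in this order. UMPS (6.14), NME1 (5.05), CTPS1 (5.00), DHODH (3.80), CTPS2 (2.73) and NME2 (0.860) were the lowest, and among these only NME1 and CTPS1 overlapped. On ZW27941, TK1 moved from rank 6 to rank 3, at 49.8 ± 1.26, just above APRT at 48.0 ± 1.02, and PRPS2 moved from rank 25 to rank 21. IMPDH2 stayed first, at 150 ± 5.35 CPM per kilobase. These values divide by the union of GENCODE v29 exons, which may hold bases that MOLM13 does not use. The union also holds bases shared with other genes, on which reads may not have been assigned. Such bases make up 46.6% of TYMS, 22.9% of NME2, 20.2% of RRM2, 18.9% of ADSL and 18.6% of NME1, so the ranks of these genes are uncertain. The other members share at most 14.5% (DUT). The genes that overlap RRM2 and ADSL are not listed under their GENCODE v29 symbols among the genes counted.

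**Figure D4:**
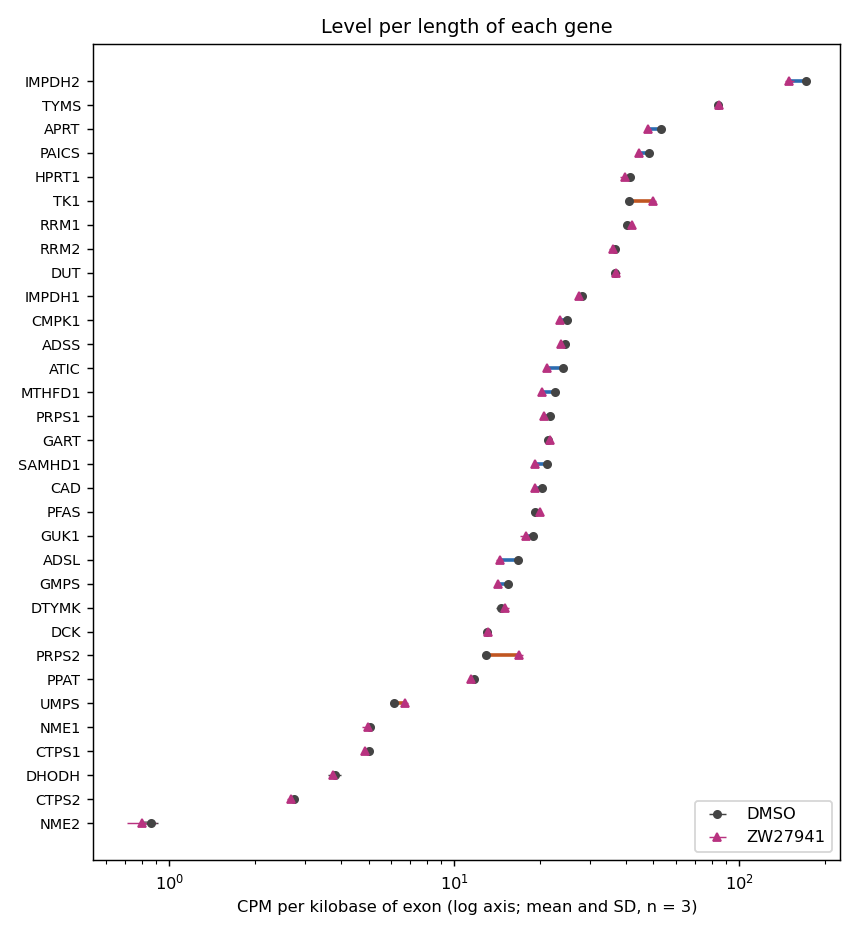
The level of each gene in CPM per kilobase of exon (log axis) is shown as mean and SD of 3 libraries, for DMSO (circles) and ZW27941 (triangles), joined by a line coloured by the test (blue lower, orange higher, grey not past the threshold). IMPDH2 is highest in both groups, and the longest orange lines belong to PRPS2 and TK1.

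The libraries were not equally placed. The median log2 deviation of the 32 members from their DMSO mean was 0.012, 0.0012 and −0.0075 in the DMSO libraries and −0.057, −0.049 and 0.0047 in the ZW27941 libraries. ZW27941 replicate 3 thus lay within the DMSO range, and it also had the largest share of reads aligned to several places, 5.25% against 3.63% to 4.07% in the others. The part of this share in the result was not tested. For the 18 de novo genes, the ZW27941 medians were alike (−0.058, −0.058 and −0.049), while for the deoxynucleotide genes they were −0.011, −0.020 and 0.048. Without replicate 3, 13 members were lower and 3 were higher, with a median log2 fold change of −0.054.

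Many nucleotide synthesis genes are textbook targets of MYC, which binds the E-box, and of E2F factors, which act at the G1 to S transition, so promoters were searched for their motifs. For 30 of the 32 members, RefSeq windows (GRCh38.p14) reaching from 250 bases before to 50 bases after the start were at hand, ADSS under its newer symbol. None was at hand for ADSL and IMPDH2, the lower members with the lowest log2 fold changes (−0.22 and −0.19), so they were not searched. The E-box CACGTG occurred in the windows of 7 members (23.3%), against 8.77% of 27305 genes, namely 3 of 10 lower members (ATIC, MTHFD1 and PAICS), 0 of 4 higher members and 4 of 16 others (PPAT, DCK, DHODH and NME1). PPAT and PAICS share a single match, since their windows share 236 bases, and ATIC has 2 matches. The motif TTTNNCGC of E2F factors, searched on both strands, occurred in 6 members (20.0%), against 8.23% of genes, namely 0 of 10 lower members, 1 of 4 higher members (PRPS2) and 5 of 16 others (ADSS, DCK, DUT, GART and TYMS). CCAAT, on both strands, occurred in 11 members (36.7%), against 39.7% of genes, in 4 of 10 lower, 2 of 4 higher and 5 of 16 other members. No 2 of the motifs overlapped in a member's window. The 27305 genes were not limited to expressed ones, unlike the members, and a gene counted if any of its windows held a match. The shares are therefore not of like sets of genes. These matches describe letters in a window and not binding.

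The E-boxes are shown, with 30 bases each, because 3 of the members that fell carry them and 4 members that did not pass the test carry them too. Capitals mark the E-box, coordinates are those of GRCh38.p14, and each stretch runs in the direction of the gene, for PPAT and PAICS in that of PPAT. In GENCODE v29 the matches lie in an exon of the named gene, for PPAT and PAICS in one of PAICS, 41 bases past its RefSeq start, except that of DHODH, of which 3 of 6 bases lie in the exon and the rest before the gene.
ATIC, chr2:215312001-215312030, plus strand: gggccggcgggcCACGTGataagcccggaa
ATIC, chr2:215312076-215312105, plus strand: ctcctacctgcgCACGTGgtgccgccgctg
MTHFD1, chr14:64388326-64388355, plus strand: ccagtccctaagCACGTGggttgggttgtc
PPAT and PAICS, chr4:56435780-56435809, minus strand: aacggagatttcCACGTGcagcaaatacag
DCK, chr4:70993521-70993550, plus strand: cgccccggccttCACGTGacctggcgtgcg
DHODH, chr16:72008573-72008602, plus strand: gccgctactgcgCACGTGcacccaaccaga
NME1, chr17:51153579-51153608, plus strand: caagtgctgcgaacCACGTGggtcccgggc

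The E2F motifs are shown in the same way because PRPS2, the member that rose most, carries one, as do members of deoxynucleotide synthesis that did not pass the test. Capitals mark the motif or its reverse complement. The match of ADSS lies outside annotated exons, and each of the others lies in an exon of its gene.
PRPS2, chrX:12791389-12791418, plus strand: agccgccgcgcTTTCCCGCtcccgcagcag
TYMS, chr18:657603-657632, plus strand: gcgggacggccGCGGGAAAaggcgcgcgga
DUT, chr15:48332144-48332173, plus strand: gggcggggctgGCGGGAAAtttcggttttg
DUT, chr15:48332159-48332188, plus strand: gaaatttcggtTTTGGCGCgctccctgcgg
DCK, chr4:70993659-70993688, plus strand: gctgcctccgcGCGCCAAAgtcaaaccccg
GART, chr21:33542338-33542367, minus strand: agcatTTTGGCGCtcccccccggcgctcct
ADSS, chr1:244452137-244452166, minus strand: cgcccctgaccTTTTCCGCtcgcgaggttt

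Of 11 known regulators of these genes, 4 were lower (36.4%) and 1 was higher (9.09%). Among all genes tested 13.8% were lower and 16.3% higher, and among well expressed genes 20.0% and 25.4%. MYC was at 386, 372 and 378 CPM in DMSO and at 339, 340 and 344 CPM on ZW27941 and fell by 9.98% (log2 fold change −0.15, SE 0.024, adjusted p = 5.78e-05, edgeR). ATF4, which drives one-carbon and amino acid genes under stress, fell by 12.8% (log2 fold change −0.20, adjusted p = 3.80e-06, edgeR). Among 16 S phase markers that are not nucleotide enzymes, 1 was lower (6.25%) and 7 were higher (43.75%), with a median log2 fold change of 0.040. FEN1, the flap endonuclease of lagging strand synthesis, rose by 26.4% (0.34 on the log2 scale) and MCM3, a subunit of the replicative helicase, rose by 17.9% (0.24 on the log2 scale). The part of these genes in the members' changes was not tested.

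Around the 32 members, 6 lists of neighbouring enzymes and transporters held 68 genes, of which 60 were tested. Of these, 15 were lower and 14 were higher (25.0% and 23.3%), near the 20.0% and 25.4% of well expressed genes. Over all genes tested the shares were 13.8% and 16.3%. The counts of the single lists below stand beside these shares, and no list was tested as a set. Of 13 tested genes of folate and one-carbon supply, 5 fell and 2 rose. MTHFD2, the mitochondrial folate dehydrogenase, fell from 289 to 246 CPM (log2 fold change −0.23, adjusted p = 1.85e-07, edgeR), and ALDH1L2, which oxidizes formyl folate in mitochondria, fell from 104 to 87.4 CPM (log2 fold change −0.26, adjusted p = 3.68e-06, edgeR). Of 16 other salvage enzymes and nucleotide kinases, 4 fell, among them the adenosine kinase ADK (log2 fold change −0.15), and 3 rose, among them the mitochondrial adenylate kinase AK4 (0.19).

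Of 18 tested genes of breakdown and interconversion, 4 fell and 4 rose. The purine enzymes that follow each other in adenosine breakdown were on opposite sides. ADA, the adenosine deaminase, fell from 49.0 to 39.1 CPM (log2 fold change −0.33, adjusted p = 3.75e-08, edgeR), and PNP, the purine nucleoside phosphorylase, rose from 80.4 to 93.1 CPM (log2 fold change 0.21, adjusted p = 1.47e-06, edgeR).

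Of 5 genes that clean the nucleotide pool of damaged or non-canonical nucleotides, 0 fell and 3 rose, among them NUDT1 (log2 fold change 0.20) and DCTPP1 (0.16). Of 4 tested nucleoside transporters, 1 fell and 2 rose. The equilibrative transporters SLC29A2 and SLC29A1 changed in opposite directions, from 34.6 to 26.9 CPM (log2 fold change −0.37, adjusted p = 2.93e-08, edgeR) and from 88.5 to 95.3 CPM (log2 fold change 0.11, adjusted p = 0.00175, edgeR). Of 4 tested paralogs and partners of members, 1 fell, ADSSL1, the paralog of ADSS (log2 fold change −0.22, adjusted p = 0.00923, edgeR), whose call was lost without DMSO replicate 3 (adjusted p = 0.0715, edgeR).

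**Figure D5:**
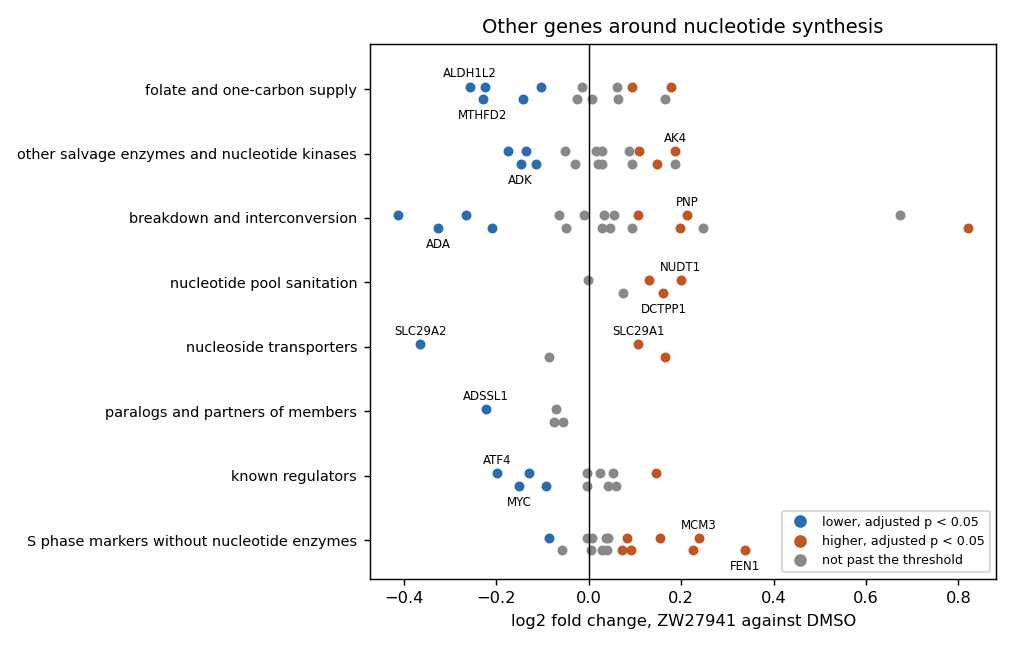
Each point is 1 tested gene of 8 lists around nucleotide synthesis, at its log2 fold change of ZW27941 against DMSO. Points are coloured by the test, and the genes named in the text, except RRM2B, are labelled. Lower and higher genes are mixed in most lists, and the S phase markers hold 7 higher genes against 1 lower.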

How the data were processed

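RNA of MOLM13 cells was sequenced by the authors as paired reads, and the deposited values are raw counts per gene symbol and library. Per the labels' processing notes, HISAT2, SAMtools 1.19.2 and HTSeq 2.0.3 were used with hg38; annotation and strand setting are not given in the sources used here. HTSeq's tallies of reads not assigned to a single gene (37.4% to 39.8% of all; unaligned, ambiguous and multiply aligned reads included) were left out.

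Counts were tested in R 4.3.3 with edgeR 4.0.16 (filterByExpr, TMM, quasi-likelihood test, Benjamini-Hochberg over 20399 genes, threshold 0.05), and the steps were tested on simulated data. Ratios within libraries were compared by exact permutation. Exon lengths came from GENCODE v29, and promoter sequences from RefSeq. Alternatives were other normalizations, filters, DESeq2 1.42.0, the likelihood ratio test, a replicate block and each library left out. The background of well expressed genes (mean log2 CPM 3 or above) and the ratios were chosen after seeing the data.

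The members and lists were chosen with earlier results of these data known. All members are accounted for. Named with all values were, per step, the called member with the lowest p in each direction, paralog pairs and PPAT with PAICS; the values of other members were added after they were seen. From each list of other pathway genes came the 2 called genes with the lowest p, and MYC. Other cell types' markers are given as summed levels or by their number under 1 CPM, and PAX5 and CD79A of the B cell markers are also named. Control libraries are labelled with DMSO at the degrader's concentration, which is taken as the matched solvent.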

Additional observations from a re-analysis of the deposited data

How the results depend on the processing

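Of the 16 members past the threshold, 11 kept their side and direction in all 14 alternatives for each member, and PRPS1, CAD, RRM1, CMPK1 and GUK1 lost the call in some. With an absolute log2 fold change over 0.25 required as well, 0 members were lower and 2 were higher (PRPS2 and TK1). Of the 16 members not called, ADSS passed with upper quartile normalization and HPRT1 without ZW27941 replicate 3. With upper quartile normalization, DCK (−0.011), TYMS (−0.019) and DUT (−0.015) changed sign on the log2 scale. With each library left out in turn, log2 fold changes ran from −0.042 to 0.027 for DHODH, from −0.0013 to 0.023 for DCK, from −0.013 to 0.021 for TYMS, from −0.023 to 0.026 for DUT and from −0.049 to 0.013 for NME1, and 8 to 13 members were lower and 3 to 4 higher. These members were near 0 throughout, and the cause was not tested. Between libraries of the same replicate number, the correlations of deviations were weak (0.080, −0.14 and −0.13). They show no pairing, but so few values cannot settle whether the libraries were paired. With a replicate block, 10 members were lower and 3 higher, with PRPS1, CAD and RRM1 no longer called, and 2767 genes were lower and 3243 higher. NME2 had the fewest counts, 318 to 367 per library, and a 95% confidence interval of −0.30 to 0.097 for its log2 fold change. The cause of its low count was not tested. The intervals of the other members not called lay between −0.12 and 0.11, so that changes within them could not be told from the spread between libraries.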
